A study of Saccharomyces cerevisiae with 112 samples.

Results

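A set of 12 budding yeast genes whose mRNA rose and fell again within 45 min of glucose withdrawal is described here: HAP4, NRG2, HXT3, SKS1, GLN1, OLE1, TLD1, YLR108C, YOR385W, PRM7, YJL107C and MMO1. A gene was taken when its mean level in the courses without glucose was highest at 5, 10 or 15 min, when that level was at least 2 times the level at 0 min in both replicates, and when no more than 50% of it remained at 45 min. Of the 5452 features with at least 200 reads over the 14 libraries of these courses, 12 met this rule (0.220%). The members were thus chosen by their read levels in the courses without glucose, given as counts scaled to the yeast reads of the library (CPM), with 1 added before ratios were taken. Everything from those courses is therefore description and carries no test.

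The study followed metabolically labelled mRNA in Saccharomyces cerevisiae around an acute loss of glucose. Courses of 7 times (0, 5, 10, 15, 20, 30 and 45 min) were taken from strain KWY165 without glucose and with glucose, with 2 replicates each. These courses are titled decay, and their RNA already carried 4-thiouracil (4TU) label at 0 min. A further 8 libraries from strain KWY11376 hold polysomes and total RNA at 30 min, with 2 replicates per group. The titles of those without glucose say post-labeling with 4TU, and the titles of those with glucose give 30 min with 4TU. For KWY165 there were also 4 libraries without 4TU, 1 each for polysomes and total RNA without glucose at 30 min and with glucose. No genotype of either strain and no origin of the replicates was given in the labels used here. The p-values therefore cover the spread between libraries, which may be technical.

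When glucose runs out, yeast stops most translation within minutes, shuts down growth genes and relieves the repression of genes for respiration and for other carbon sources. Snf1, the yeast AMP-activated kinase, and the protein kinase A pathway carry much of this signal to transcription factors, and sets of hexose transporters with different affinities replace each other as the sugar falls. In SLAM-seq, 4TU built into new RNA is read as T-to-C conversions, so that reads with conversions (labelled reads) mark RNA made while the label was present, and a declining labelled share shows replacement by unlabelled RNA.

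The courses held 2710630 to 10591665 yeast reads per library and the libraries of polysomes and total RNA with 4TU 14965187 to 31069123. Replicates varied 4.02 to 134.6 times as much as counting alone would give. Labelled reads made up 62.7% and 62.3% of the reads at 0 min without glucose, and 35.0% and 38.9% at 45 min. With glucose they made up 61.0% and 61.1% at 0 min, and 18.8% and 18.3% at 45 min. In the libraries without 4TU the share was 0.035% to 0.05%. Yeast reads per spike-in read at 45 min were 0.51 and 0.469 of those at 0 min without glucose, and 1.27 and 0.737 of those at 0 min with glucose.

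Most genes that rose did so late. Over the course without glucose 1181 features reached at least 2 times the level at 0 min in both replicates at their highest time. That time was 45 min for 895 of them, 30 min for 202, 20 min for 62, 15 min for 12, 10 min for 8 and 5 min for 2. Of the 22 early ones, 12 came back to 50% or less and 10 did not. The set of 1097 genes that were highest at 30 or 45 min is used below for comparison (late risers). A further 11 genes met every part of the rule except that they were highest at 20 min, among them FMP48 at 36.7 times its starting level in the lower replicate, the transcription factor genes CIN5 (11.8 times) and ROX1 (5.70 times), the hexose transporter gene HXT4 (6.97 times) and the glucose repressor gene MIG2 (2.88 times). At the edge of the fold criterion the members with the smallest rise were OLE1, GLN1 and MMO1, at 2.17, 2.17 and 2.202 times in the lower replicate, and the nearest genes outside were CBS1, ERG5 and NAT4, at 1.72, 1.67 and 1.64 times. At the edge of the return criterion YLR108C, YJL107C and PRM7 kept 46.6%, 45.02% and 45.02% of their peak at 45 min, and YJU2, YPR064W and SUL2 outside it kept 51.9%, 52.4% and 53.9%. All members lay far above the read minimum, from 969 reads for YJL107C to 57042 for HXT3, and at most 0.394% of their reads were multimapped.

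**Figure D1:**
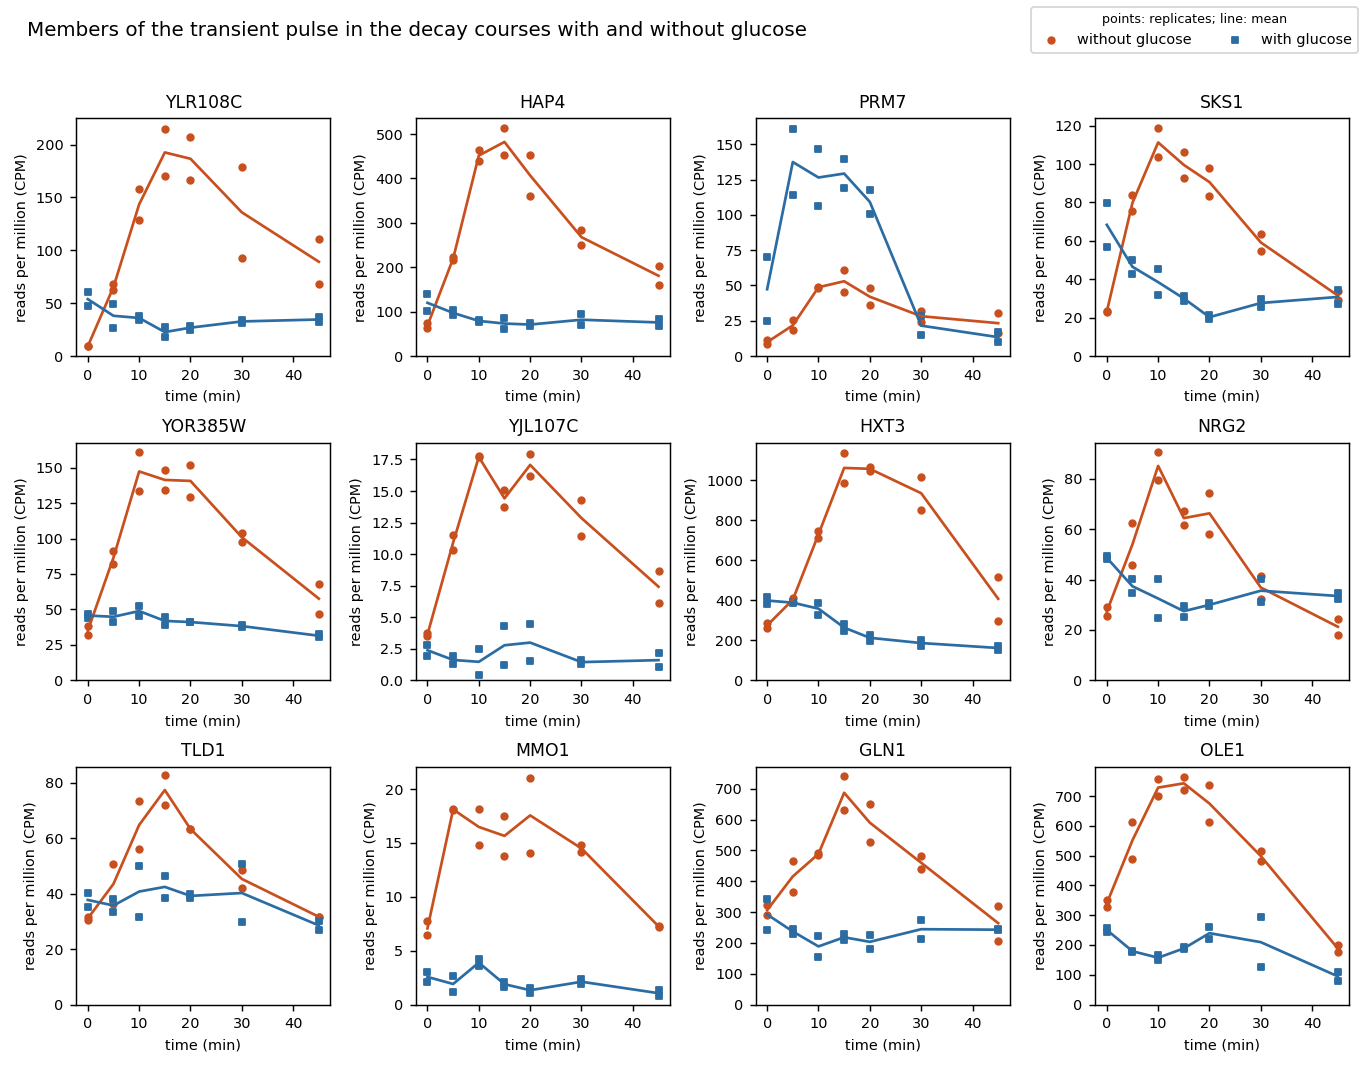
Read level (CPM, y axis, from 0) of the 12 members against time in minutes (x axis), without glucose (orange circles) and with glucose (blue squares); points are the 2 replicates and lines their means. HAP4 without glucose stood at 513 and 452 CPM at 15 min, against 61.2 and 85.4 CPM with glucose, and PRM7 is the one panel in which the blue points at 5 to 20 min lie above the orange ones.

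HAP4 and NRG2 encode transcription factors. HAP4, on chromosome XI (feature 233642 to 234455, plus strand), encodes the activating subunit of the Hap2/3/4/5 complex, which turns on respiratory genes. Its level without glucose was 73.8 and 63.7 CPM at 0 min, 216 and 223 CPM at 5 min, 513 and 452 CPM at 15 min, and 159 and 203 CPM at 45 min. It was thus about as high in both replicates at each early time, and at 45 min it remained at 2.14 and 3.14 times its start. NRG2, on chromosome II (369733 to 370287, minus strand), encodes a zinc-finger repressor that acts in glucose repression. Its level was 25.4 and 29.2 CPM at 0 min, 79.6 and 90.8 CPM at 10 min, and 18.2 and 24.4 CPM at 45 min. NRG2 ended below its start in both replicates, at 0.73 and 0.84 times. Of the 34 measured genes in a list of carbon and stress transcription factors, 20 rose at least 2 times in both replicates, 2 with a highest time of 15 min or earlier (HAP4 and NRG2), 5 at 20 min and 13 at 30 or 45 min. NRG1, the paralogue of NRG2, was among the late ones, with 15 CPM + 1 at 0 min and 65.6 CPM + 1 at 45 min (means), as was CAT8, the activator of gluconeogenic genes, with 4.0 and 285.5 CPM + 1 at the same times.

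HXT3 and SKS1 belong to glucose uptake and the response to low glucose. HXT3, on chromosome IV (1162586 to 1163207, minus strand), encodes a low-affinity hexose transporter and reached the highest level of the set at its peak. Its level without glucose was 262 and 288 CPM at 0 min, 413 and 394 CPM at 5 min, 986 and 1140 CPM at 15 min, 1067 and 1049 CPM at 20 min, and 297 and 519 CPM at 45 min. The plateau thus ran over 15 and 20 min, and the replicates parted only at the end. SKS1, on chromosome XVI (500208 to 500925, minus strand), encodes a protein kinase needed for adaptation to low glucose. Its level was 22.7 and 23.6 CPM at 0 min, 84.0 and 75.7 CPM at 5 min, 104 and 119 CPM at 10 min, and 34.1 and 29.0 CPM at 45 min. SKS1 made most of its rise in the first 5 min, to 3.58 and 3.12 times its start. The list of hexose transport and glucose signalling genes had 26 measured members, of which 16 rose: HXT3 at 15 min, 3 (HXT4, MIG2 and MIG3) at 20 min and 12 at 30 or 45 min. The high-affinity transporter genes HXT6 and HXT7 had 14.7 and 170.6 CPM + 1 at 0 min and 4235 and 17858 CPM + 1 at 45 min, where they were highest, so among the transporter genes HXT3 and HXT4 peaked and declined while HXT2, HXT5, HXT6 and HXT7 were highest at the last time.

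GLN1, OLE1 and TLD1 belong to nitrogen and lipid metabolism. GLN1, on chromosome XVI (643071 to 643738, plus strand), encodes glutamine synthetase. It had 322 and 291 CPM at 0 min, 742 and 633 CPM at 15 min, and 208 and 321 CPM at 45 min. OLE1, on chromosome VII (399911 to 400642, plus strand), encodes the desaturase that makes monounsaturated fatty acids. It had 328 and 352 CPM at 0 min, 722 and 764 CPM at 15 min, and 178 and 199 CPM at 45 min, and its end level of 0.54 and 0.57 times the start was the lowest of all 12 members. TLD1, on chromosome IV (1012710 to 1013460, plus strand), encodes a lipid droplet protein that restrains triacylglycerol breakdown. It had 30.4 and 31.6 CPM at 0 min, 71.7 and 82.8 CPM at 15 min, and 31.5 and 31.7 CPM at 45 min, so both replicates were back at their start. Of 51 measured amino acid biosynthesis genes 4 rose at least 2 times in both replicates, 3 of them highest at 30 or 45 min. Of 34 measured fatty acid, sterol and lipid genes 7 rose, 6 of them late. ERG5, a sterol synthesis gene of that list, was also highest at 15 min but fell short of the fold criterion, at 1.67 times in the lower replicate. The counting window of TLD1 overlaps that of PMP3 on the opposite strand by 611 bases. The window of OLE1 overlaps that of ERV14 on the opposite strand by 275 bases. Likewise the window of SKS1 overlaps that of SMA1 on the opposite strand by 516 bases. SMA1 had 1.3 CPM + 1 at 0 min and 2.7 CPM + 1 at 45 min without glucose (means). PMP3 was highest at 45 min and ERV14 moved by at most 1.03 times at its highest time.

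YLR108C and YOR385W encode proteins without a described function. YLR108C, on chromosome XII (366320 to 366917, minus strand), had the largest rise of the set. Its level without glucose was 9.17 and 9.38 CPM at 0 min, 67.7 and 62.8 CPM at 5 min, 171 and 214 CPM at 15 min, and 67.7 and 111 CPM at 45 min. It therefore stood at 16.9 and 20.8 times its start at 15 min and remained at 6.76 and 10.8 times at 45 min. It is the one member that no longer met the rule when library sizes were scaled by TMM factors. Without replicate 1 it did not meet the rule either, and neither did GLN1, MMO1, PRM7, YJL107C and YOR385W. Without replicate 2 the rule was not met by HXT3, OLE1 and YJL107C. YOR385W, on chromosome XV (1065666 to 1066639, plus strand), had 38.1 and 32.0 CPM at 0 min, 161 and 134 CPM at 10 min, and 47.0 and 68.2 CPM at 45 min, with little change between 10 and 20 min.

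PRM7, YJL107C and MMO1 were the least abundant members, and each lies next to another feature on its own strand. PRM7, a pheromone-regulated gene on chromosome IV (381646 to 382235, minus strand), shares 1 base with BSC1. It had 8.54 and 11.2 CPM at 0 min, 45.1 and 60.9 CPM at 15 min, and 16.3 and 30.3 CPM at 45 min. BSC1 was highest at 20 min at 3.10 and 10.1 times its start. YJL107C, on chromosome X (217930 to 219103, minus strand), shares 26 bases with PRM10, which was highest at 15 min, at 2.70 and 2.00 times its start. YJL107C had 3.54 and 3.72 CPM at 0 min, 17.7 CPM in both replicates at 10 min, and 6.14 and 8.70 CPM at 45 min. MMO1, on chromosome XI (356393 to 356963, plus strand), lies 635 bases from PHD1, a transcription factor gene on the same strand. It had 7.71 and 6.42 CPM at 0 min, 18.2 and 18 CPM at 5 min, and 7.19 and 7.33 CPM at 45 min. PHD1 was highest at 20 min at 6.01 and 7 times its start and did not come back, with 419.8 CPM + 1 at 45 min. HAP4, SKS1, YOR385W, HXT3, NRG2 and GLN1 also have a neighbour on their own strand. ECM2, 898 bases from NRG2, was highest at 10 min like NRG2, at 1.55 times its start in both replicates. Reads from neighbouring genes that run into the members' windows would be counted there, and their part in the members' values was not tested.

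The 2 replicates did not always place the peak at the same time. HAP4, YLR108C, TLD1 and GLN1 were highest at 15 min in both and NRG2 at 10 min in both. The other 7 members were highest at different times in replicates 1 and 2, the widest gap being that of MMO1, at 5 min in replicate 1 and at 20 min in replicate 2. At 45 min a member kept 23.8% (NRG2) to 44.7% (TLD1) of its peak in replicate 1 and 25% (SKS1) to 52.0% (YJL107C) in replicate 2. When levels were scaled to spike-in reads in place of the library total, the return at 45 min was deeper for every member, to 17.2% (OLE1) to 32.6% (YJL107C) of the peak. The rise was smaller on that scale. HAP4, PRM7, SKS1, YOR385W and NRG2 still met the rule. YLR108C, YJL107C and HXT3 were then highest at 20 min, and TLD1, MMO1, GLN1 and OLE1 rose 1.67, 1.76, 1.60 and 1.58 times in the lower replicate. How the spike-in was added was not given in the labels.

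Labelled reads of every member rose along with unlabelled ones. YLR108C gained 70.5 and 90.9 labelled CPM and 91.1 and 114 unlabelled CPM by 15 min. With a constant smaller than 1 CPM added to both levels, labelled reads rose 12.5 and 13.9 times and unlabelled reads 23.5 and 35.3 times. The constant lowers these ratios. HAP4 gained 199 and 194 labelled CPM and 239 and 194 unlabelled CPM by 15 min. Labelled and unlabelled HAP4 thus grew by similar amounts, and the labelled share was 48.1% and 51.8% at the peak. NRG2 gained the least label in proportion, since 70.6% and 64.0% of its gain at 10 min was unlabelled. The lowest unlabelled parts were those of MMO1, with 24.6% and 45.9% of its gain at 5 min, and of SKS1, with 39.1% and 37.4% at 10 min. Among the 517 late risers that were already at least 2 times higher at 15 min, the unlabelled part of the gain at 15 min had a median of 58.2% in replicate 1 and 57.0% in replicate 2. The members that peaked at 15 min lay between 48.7% (OLE1) and 65.3% (TLD1), both in replicate 1.

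**Figure D2:**
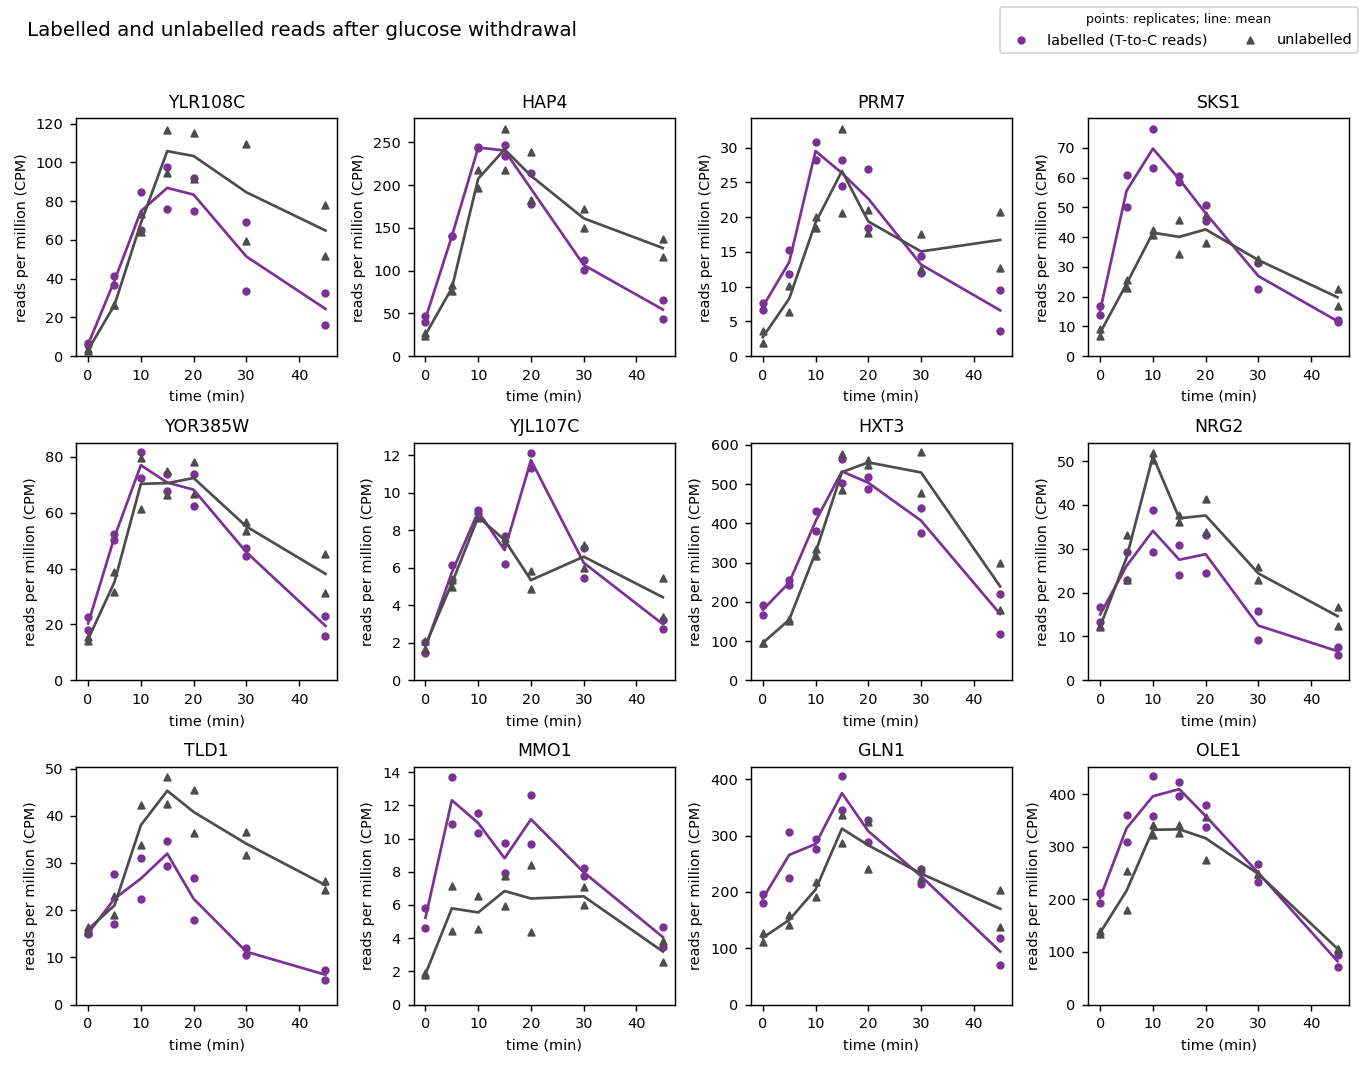
Labelled CPM (T-to-C reads, purple circles) and unlabelled CPM (grey triangles) of the 12 members (y axis, from 0) against time without glucose in minutes; points are the 2 replicates and lines their means. In SKS1 the labelled reads are above the unlabelled ones at the 10 min peak, and in NRG2 they are below, with labelled shares of 60.8% and 64.3% for SKS1 and 36.8% and 42.9% for NRG2.

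Where glucose was kept, the same rule was met by 2 of 5411 features (0.0370%), PRM7 and GRX4. PRM7 with glucose had 24.5 and 70.1 CPM at 0 min, 114 and 161 CPM at 5 min, 119 and 139 CPM at 15 min, and 9.94 and 16.9 CPM at 45 min. It was therefore higher with glucose than without at 5 to 20 min in every library, and it met the rule in both courses. With spike-in scaling 4 genes met the rule with glucose, and neither PRM7 nor GRX4 was among them. The courses also began at different levels. At 0 min the level without glucose over that with glucose was 0.21 and 0.17 for YLR108C, 0.37 and 0.17 for PRM7, and 0.29 and 0.42 for SKS1. The ratio was 0.53 and 0.63 for HAP4, 0.54 and 0.60 for NRG2, and 0.69 in both replicates for HXT3. Both replicates started higher without glucose for MMO1 (2.17 and 2.39), YJL107C (1.19 and 1.61) and OLE1 (1.27 and 1.44). Part of the contrast between courses was thus present before the first later time.

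The courses with glucose did not choose the members, so changes in them were tested. In the quasi-likelihood test of edgeR, adjusted by Benjamini-Hochberg over 5483 genes, none of the 12 members was past an adjusted p of 0.05 at 5 min against 0 min, where 0.219% of all genes were higher and 0.328% lower. PRM7 and SKS1 had unadjusted p-values of 0.00545 and 0.0142 there. At 10 min 1 member was lower and none higher, against 2.26% of all genes lower and 1.73% higher. That member was SKS1, with 45.2 and 31.9 CPM at 10 min against 79.8 and 57.0 CPM at 0 min (log2 change -0.77 ± 0.18 SE, adjusted p = 0.0251). At 15 min 4 members were lower and none higher, against 5.93% of all genes in each direction.

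The members lower with glucose at 15 min were SKS1, YLR108C, NRG2 and HXT3. SKS1 had 28.5 and 31.5 CPM at 15 min against 79.8 and 57.0 CPM at 0 min (log2 change -1.05 ± 0.18, adjusted p = 0.00138). YLR108C had 18.1 and 27.3 CPM at 15 min against 47.4 and 60.3 CPM at 0 min (-1.10 ± 0.26, adjusted p = 0.0157). Both genes moved down over the minutes in which they rose without glucose, but their level at 0 min was higher in the course with glucose. NRG2 changed by -0.68 ± 0.17 (adjusted p = 0.017) and HXT3, at 282 and 246 CPM at 15 min against 381 and 417 CPM at 0 min, by -0.46 ± 0.13 (adjusted p = 0.0249). PRM7 was 1.64 ± 0.46 higher on the log2 scale, with an adjusted p of 0.0509. The median change of the 12 members at 15 min was -0.31, against -0.19 over the late risers and 0.00 over all genes.

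Leaving out 1 library of the course with glucose ended each of these calls in at least 1 case, while the log2 changes stayed negative. Without replicate 1 at 0 min all 4 calls at 15 min were lost, for YLR108C (-1.28, adjusted p = 0.0693), SKS1 (-0.79, 0.0693), HXT3 (-0.53, 0.105) and NRG2 (-0.71, 0.126), and so was SKS1 at 10 min (-0.52, 0.318). Without replicate 2 at 0 min YLR108C (-0.91, 0.0832), HXT3 (-0.38, 0.142) and NRG2 (-0.65, 0.0617) were lost at 15 min, and HAP4 (-0.76, adjusted p = 0.0432) and PRM7 (2.56, adjusted p = 0.00601) were gained. PRM7 was then also past the threshold at 5 min (2.59, adjusted p = 0.0221) and at 10 min (2.47, adjusted p = 0.0145). Leaving out replicate 1 at 15 min lost YLR108C (-0.79, 0.101), and leaving out replicate 2 at 15 min lost HXT3 (-0.40, 0.205) and NRG2 (-0.61, 0.152). Leaving out replicate 2 at 10 min lost SKS1 (-0.56, 0.16) and gained GLN1 (-0.87, adjusted p = 0.0189), and leaving out replicate 1 at 10 min gained NRG2 (-0.83, adjusted p = 0.028).

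The labelled share of the members' mRNA fell at about the pace of the transcriptome while glucose was present. The odds of a labelled read (log2) fell with time in 10 of the 10 members with enough reads, as they did in 100% of 5099 genes. The slope per 10 min was steepest for SKS1 (-0.87 ± 0.06 SE) and shallowest for TLD1 (-0.63 ± 0.07), with a median of -0.80 over the members and -0.77 over all genes. When slopes were tested against that of the median gene, none of the 10 members was past the threshold by edgeR, against 8.51% of all genes with a shallower slope and 2.20% with a steeper one, and the smallest unadjusted p among them was 0.0654 (TLD1). YJL107C and MMO1 had 204 and 217 reads over the 14 libraries with glucose and were not tested.

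**Figure D3:**
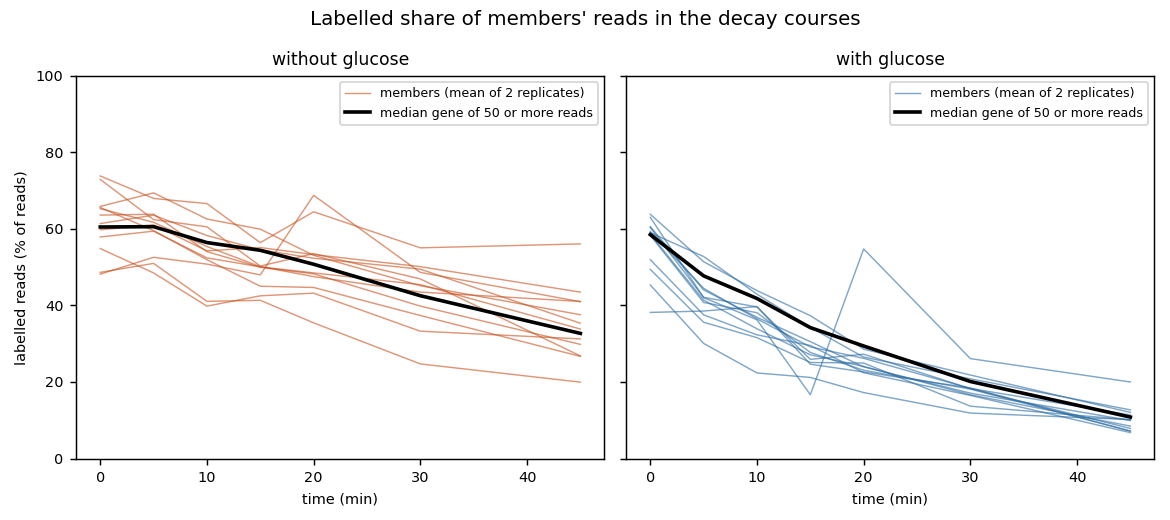
Labelled reads in % of all reads (y axis) against time in minutes, without glucose (left) and with glucose (right); thin lines are the 12 members (mean of 2 replicates) and the black line is the median gene among those with at least 50 reads. The median member ended at 33.7% and 35.2% without glucose and at 9.78% and 10.7% with glucose; the lines that jump at 20 min are YJL107C and MMO1 without glucose and MMO1 with glucose, the members with the fewest reads.

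At 30 min after withdrawal most members were still higher in the other strain, in libraries that did not enter the rule. In total RNA without against with glucose 9 of 12 members were higher and none lower in edgeR's quasi-likelihood test, where 29.4% of 5540 genes were higher and 29.3% lower. The median log2 change was 1.96 over the members, 1.4 over the late risers, of which 76.2% were higher, and -0.02 over all genes. MMO1 changed most, with 132 and 108 CPM without glucose against 1.59 and 1.61 CPM with glucose (log2 change 6.63 ± 0.33 SE, adjusted p = 2.13e-10). YJL107C, at 12.2 and 14.03 CPM without glucose against 0.77 and 0.80 CPM with glucose, changed by 4.45 ± 0.56 (adjusted p = 5.15e-06).

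YLR108C had 402 and 410 CPM without glucose against 65.7 and 69.6 CPM with glucose (3.004 ± 0.19, adjusted p = 3.06e-09). PRM7 had 47.4 and 58.1 CPM without glucose against 10.1 and 8.21 CPM with glucose (2.96 ± 0.30, adjusted p = 4.62e-07). OLE1 had 242 and 216 CPM without glucose against 38.0 and 42.6 CPM with glucose (2.92 ± 0.20, adjusted p = 4.98e-09). The groups were far apart for these 3 genes. YOR385W (2.40 ± 0.27), HAP4 (1.51 ± 0.18), GLN1 (1.45 ± 0.19) and HXT3 (0.84 ± 0.18) were also past the threshold, and HXT3 alone lost the call when library totals were used in place of TMM factors (0.40, adjusted p = 0.0837).

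The other 3 members were not past the threshold at 30 min. SKS1 had 25.97 and 32.0 CPM without glucose against 43.5 and 46.2 CPM with glucose (-0.21 ± 0.27), and with library totals it was lower (-0.63, adjusted p = 0.0471). NRG2 (0.72 ± 0.35) and TLD1 (0.68 ± 0.35) had positive values, and TLD1 passed when the 4 libraries compared were fitted alone (adjusted p = 0.0237). In the libraries of KWY165 without 4TU, with 1 per group and no test, all 12 members were higher without glucose, by 0.74 (GLN1) to 5.74 (MMO1) on the log2(CPM + 1) scale, with a median of 2.12 against 1.28 over the late risers and 0.10 over all genes. SKS1 stood at 43.0 CPM without glucose and 19.5 CPM with glucose in those libraries, so its values in the 2 sets of libraries differed in sign.

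**Figure D4:**
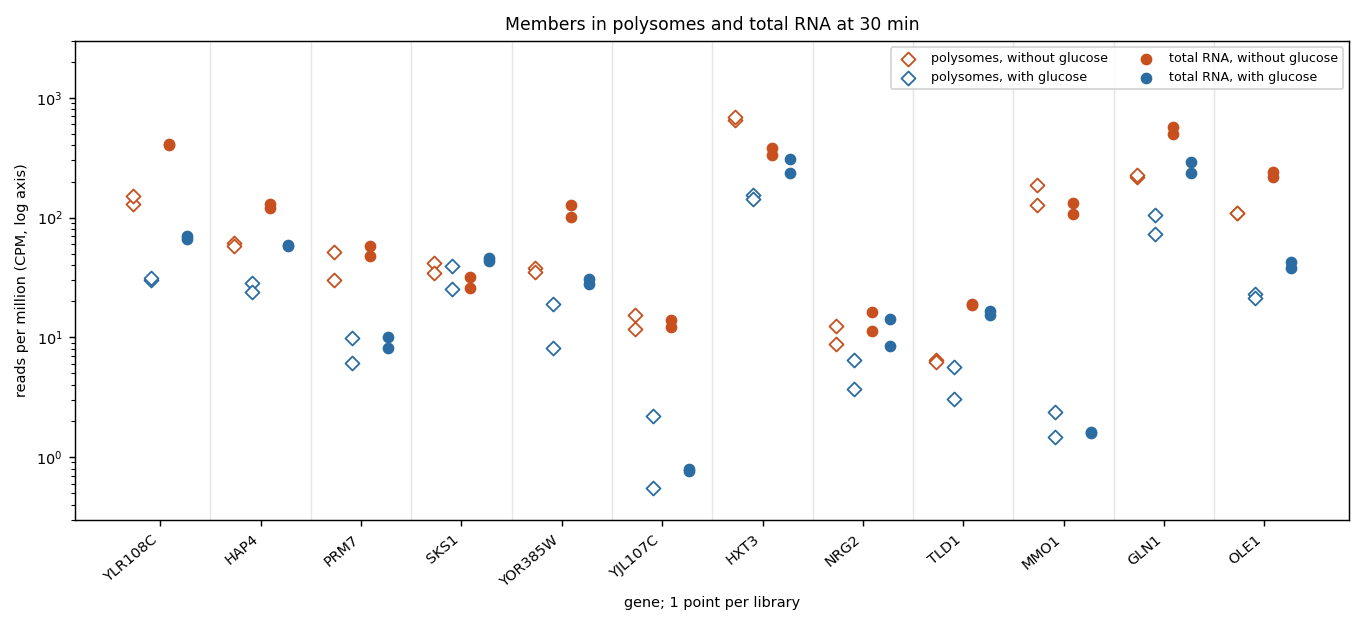
CPM (log axis) of the 12 members in polysomes (open diamonds) and total RNA (filled circles) at 30 min without glucose (orange) and with glucose (blue), 1 point per library of strain KWY11376. The polysome points of HXT3 without glucose (648 and 694 CPM) stand above its total RNA points (332 and 383 CPM), and with glucose (154 and 142 CPM) below them (307 and 235 CPM).

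Polysomes are the fraction of mRNA carrying several ribosomes, and about as large a share of the members as of all genes was higher or lower there. In polysomes against total RNA without glucose 3 of 12 members were higher and 3 lower, against 25.7% of all genes higher and 24.4% lower, and the median of the members was 0.02 on the log2 scale, beside 0.01 over all genes and 0.34 over the late risers. HXT3, the hexose transporter, had 648 and 694 CPM in polysomes against 332 and 383 CPM in total RNA (1.65 ± 0.19, adjusted p = 5.38e-06). MMO1 (1.16 ± 0.25, adjusted p = 0.00113) and SKS1 (1.15 ± 0.27, adjusted p = 0.00241) were also higher in polysomes, and both lost the call with library totals (adjusted p = 0.167 and 0.213).

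The members lower in polysomes without glucose were YLR108C, YOR385W and GLN1. YLR108C had 129 and 152 CPM in polysomes against 402 and 410 CPM in total RNA (-0.80 ± 0.18, adjusted p = 0.00175). YOR385W had 38.0 and 35.0 CPM in polysomes against 128 and 100.4 CPM in total RNA (-0.90 ± 0.26, adjusted p = 0.00901), and GLN1 220 and 227 CPM against 566 and 502 CPM (-0.51 ± 0.18, adjusted p = 0.0281). YLR108C was past the threshold without each library in turn. YOR385W was lost without replicate 1 of total RNA (-0.71, adjusted p = 0.108) or replicate 2 of polysomes (-0.76, 0.0718). GLN1 was lost without any one of the 4 libraries compared, with values of -0.60 to -0.42 and adjusted p = 0.0576 to 0.214. All of these log2 changes are relative to TMM factors. With library totals the median of all genes moved to -0.73, and HAP4, TLD1 and OLE1 were then past the threshold as lower.

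With glucose, 4 members were lower in polysomes than in total RNA and none higher, against 13.6% of all genes lower and 15.3% higher. GLN1 had 105 and 73.6 CPM in polysomes against 294 and 235 CPM in total RNA (-1.06 ± 0.19, adjusted p = 0.000705). TLD1 changed by -1.31 ± 0.36 (adjusted p = 0.0124), HAP4 by -0.66 ± 0.18 (0.0139) and YLR108C by -0.63 ± 0.18 (0.0171). GLN1 passed without each library in turn. TLD1 was lost without replicate 1 of polysomes (-0.89, 0.0929), HAP4 without replicate 2 of total RNA (-0.54, 0.0795) or of polysomes (-0.63, 0.0694), and YLR108C without replicate 2 of total RNA (-0.48, 0.102) or replicate 1 of polysomes (-0.53, 0.0787). Without replicate 1 of polysomes YOR385W was past the threshold as lower (-1.24, adjusted p = 0.00358) and YJL107C and MMO1 as higher (2.05 and 1.16, adjusted p = 0.00616 and 0.0374). The last 2 rest on 29 and 48 reads for MMO1 and 11 and 44 reads for YJL107C in the polysome libraries with glucose. When TMM factors were left out, so that only library totals scaled the reads, the median of all genes was -0.53, with 239 genes higher and 2051 lower, and 8 members were lower, YOR385W, HXT3, NRG2 and OLE1 in addition to these 4.

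HXT3 was the one member past the threshold for a change of polysome association with glucose. Tested as the difference of both contrasts, 1 of 12 members (8.33%) was higher and none lower. This is near the share of all genes, of which 8.16% were higher and 8.01% lower. On simulated counts the test recovered 22.7% of genes changed by 1 on the log2 scale, so members not called may have changed. HXT3 had 648 and 694 CPM in polysomes and 332 and 383 CPM in total RNA without glucose, and 154 and 142 CPM in polysomes and 307 and 235 CPM in total RNA with glucose. The change was 2.00 ± 0.26 on the log2 scale (adjusted p = 0.000222). Of the 27 hexose transport and glucose signalling genes tested, 12 were higher and none lower, with a median of 1.20. Over the members the median was 0.36, beside 0.37 over the late risers, of which 19.1% were higher. SKS1 changed by 1.10 ± 0.38 with an adjusted p of 0.0578. It passed without replicate 2 of polysomes with glucose (1.58, adjusted p = 0.00992), without replicate 2 of polysomes without glucose (1.31, adjusted p = 0.0403) and with DESeq2 (1.17, adjusted p = 0.0296). In the single libraries without 4TU the members ranged from -0.865 (MMO1) to 1.60 (GLN1) on the log2(CPM + 1) scale, with a median of 0.22. HXT3 changed by 1.23 and SKS1 by 0.49 there, beside -0.05 for the median gene.

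**Figure D5:**
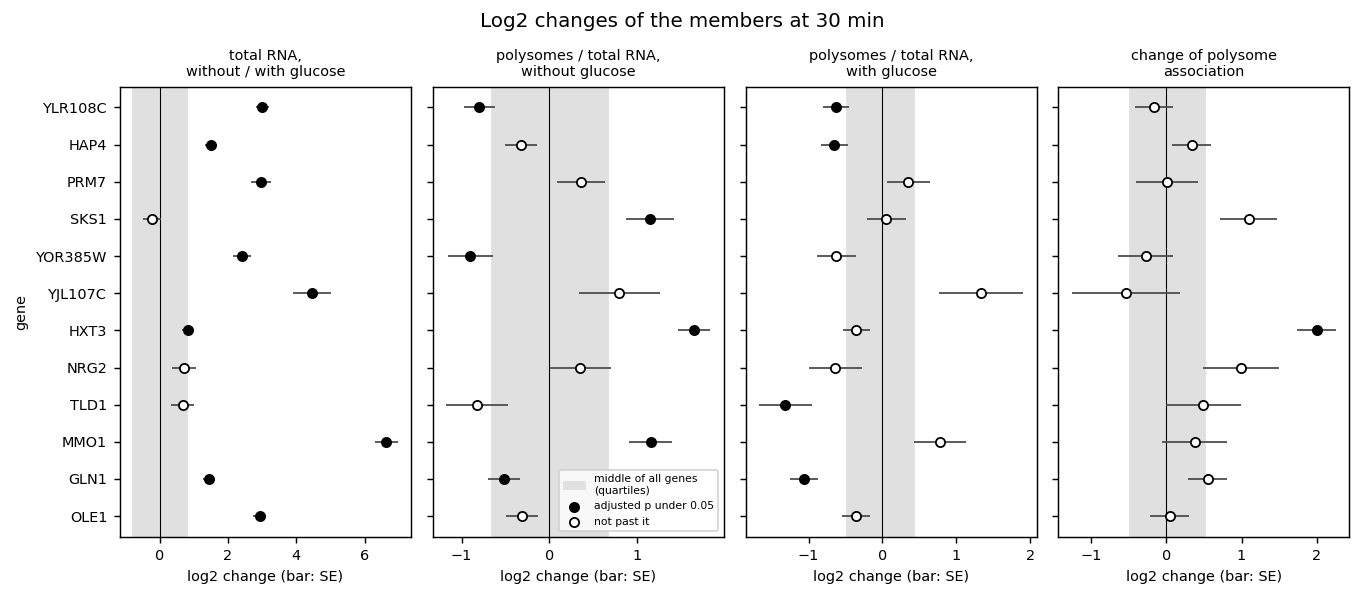
Log2 changes (x axis, bars are standard errors) of the 12 members (y axis) in total RNA without over with glucose, in polysomes over total RNA without glucose and with glucose, and in the change between these contrasts; filled points had an adjusted p under 0.05 and the grey band holds the middle of all genes between their quartiles. In the last panel HXT3, at 2.00, is the one filled point.

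Little RNA in the libraries without glucose carried label at 30 min, for the members as for all genes. Labelled reads made up 1.792% and 1.655% of all reads in total RNA without glucose, against 49.4% and 50.8% with glucose. The titles give different labelling for these groups, and when the members' RNA was made was not tested. In total RNA the labelled share of GLN1 was 1.96% and 1.80% without glucose against 54.7% and 57.1% with glucose, and that of HXT3 was 1.57% and 1.24% without glucose against 58.7% and 65.6% with glucose. YLR108C had 1.92% and 2.22% without glucose against 54.0% and 62.2% with glucose. The odds of labelled reads were lower in 12 of 12 members, as in 99.6% of 5381 genes. Against the median gene none of the 12 members was past the threshold by edgeR, where 6.49% of all genes had a smaller fall and 2.45% a larger one. MMO1 had the smallest fall of the set, 2.18 ± 0.83 above the median gene on the log2 scale (unadjusted p = 0.0146, adjusted p = 0.116), and passed with the replicate number as a block (2.29, adjusted p = 0.00426).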

How the data were processed

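The 28 libraries of the decay courses, 8 libraries of total RNA and polysomes with 4TU and 4 without 4TU were used, of 112 samples in the series; the other 72 were not analysed here. Samples were grouped by their titles. The deposited tables give whole-number read counts and counts of reads with T-to-C conversions per feature, per the file headers. They also hold a conversion rate, deposited as a fraction of covered T positions, and CPM as the authors scaled it to each library; neither entered a test. Slamdunk 0.4.3 wrote the tables, per the file headers, from alkylated RNA and 3' end libraries for SLAM-seq, per the labels' protocols, which do not tie a kit to each sample. Cutadapt, Bowtie, TopHat2 and featureCounts are named per the submitters' processing notes. The genome build was not given in the labels or headers used here, so coordinates are as deposited, counted from 1. Coordinates, overlaps and gaps refer to the counting windows of the features, which need not span whole genes. RefSeq's gene table paired 5558 of 5560 features with symbols.

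CPM was recomputed over yeast reads, leaving out the 9 spike-in features. Tests used edgeR 4.0.16 in R 4.3.3 with TMM factors, its expression filter, robust quasi-likelihood tests and Benjamini-Hochberg adjustment over all genes tested, with a threshold of 0.05. The course with glucose (14 libraries) and the 4TU set (8 libraries) were separate fits. Labelling was tested by entering labelled and unlabelled reads of a library as separate columns, for genes with a mean of 50 reads and 10 labelled reads in sum. On simulated counts the test of total RNA recovered 72.3% of genes changed by 1 and 100% of those changed by 2 on the log2 scale (5530 genes), and that of the change of polysome association 22.7% and 97.1% (5529 genes). Those simulated counts had 200 changed genes and the same spread above counting for every gene. Recovery in these data, with their own spread and more genes changed, may be different. The courses may be repeated samples of 1 culture, which the tests take as independent.

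The members and the 26 gene lists were chosen with earlier results of these data known, and no test was run on the courses that chose the members. Named genes are the members, listed genes that rose, members past a threshold and the genes nearest to each threshold of the rule; FMP48, CIN5, ROX1, HXT4, MIG2, NRG1, CAT8 and the neighbouring genes were chosen after their values were seen. Alternatives were DESeq2 1.42.0, other scalings and filters, the compared libraries alone, the replicate number as a block and each library left out. A change shared by all mRNAs cancels in these values, and fewer molecules of an mRNA per cell cannot be told from fewer cells that hold it.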

Additional observations from a re-analysis of the deposited data

Results flagged for a closer look

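HXT3, which encodes a low-affinity hexose transporter, was the one member past the threshold for a change of polysome association between cells without and with glucose. The interaction term of the edgeR fit was 2.00 on the log2 scale (SE 0.259, adjusted p = 0.000222). In that term 8.16% of all genes were higher, so 1 of 12 members (8.33%) is near the share of all genes. HXT3 was past the threshold in all 13 alternative fits of that comparison, with values of 1.78 to 2.10 and a largest adjusted p of 0.00656. In CPM the polysome libraries without glucose stood above those of total RNA, and with glucose below them. With library totals the median gene with glucose was also lower in polysomes (-0.53). With TMM factors in the same edgeR fit HXT3 changed by 1.65 ± 0.19 without glucose (adjusted p = 5.38e-06). With glucose it changed by -0.35 ± 0.18 and was not past the threshold (adjusted p = 0.158).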

How the results depend on the processing

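Of 47 member values past the threshold none turned sign. Of these, 22 are labelled odds, a measure called in nearly all genes, and all 22 stayed past it under every alternative run; of the other 25, 12 did. A further 21 passed only under an alternative, and of the 60 that never passed, 26 changed sign under one. The rule gave 7 members with spike-in scaling, 5 of them shared with the 12, and 10 to 16 with 1 replicate alone, 6 and 9 of them shared. With glucose the rule, met by 2 genes, was met by 4 others with spike-in scaling (none shared), by 19 at 1.5 times, by none (0) at 3 times and by 12 to 21 with 1 replicate. With the compared libraries alone the genes called with glucose were 102 at 5 min, 135 at 10 min and 1045 at 15 min, in place of 30, 219 and 650, and without 1 library 4 to 18, 12 to 187 and 54 to 530. Members higher with glucose were 0 to 1 at each of these times without 1 library and 1 at 15 min by DESeq2 and under the replicate block; members lower were 0 to 2 at 10 min and 0 to 3 at 15 min without 1 library. With library totals the median of all genes moved by up to -0.73, in polysomes without glucose, where calls split into 429 higher and 2775 lower in place of 1424 and 1350. The split was 239 and 2051 in place of 848 and 753 in polysomes with glucose, 1052 and 2344 in place of 1628 and 1625 in total RNA, 224 and 516 in place of 452 and 444 in the change, and 138 and 703, 46 and 207, and 9 and 22 with glucose at 15, 10 and 5 min in place of 325 and 325, 95 and 124, and 12 and 18. That scaling gave 1 member lower in total RNA, 1 higher and 6 lower in polysomes without glucose and 8 lower with glucose. Without 1 library, members lower in polysomes without glucose were 1 to 2. With glucose 2 to 4 were lower and 0 to 2 higher, 1 was higher by DESeq2 and 2 were lower with the compared libraries alone, and YJL107C ranged from -0.11 to 2.05. All genes called there ranged from 851 to 1489, and in the change of polysome association from 357 to 964 without 1 library. In that change 2 members were higher by DESeq2, with its size factors and under the replicate block, and 1 to 2 without 1 library. Relative to the median gene, a test chosen after seeing the data, slopes were called for 273 to 353 genes with 1 replicate (546 in all) and odds in total RNA for 179 to 361 without 1 library (481 in all), with 1 member higher under the replicate block. The cause of these changes was not tested. Deviations of same-numbered libraries correlated between -0.271 and 0.361, so the replicate numbers are not taken as pairs; the block changed no other member call except YOR385W in polysomes with glucose (-0.69, adjusted p = 0.0395). YJL107C and MMO1, with 2 to 50 reads per library with glucose, are limited by depth. Promoter motifs were not run.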

Other observations

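The level of MMO1 without glucose differed between the decay courses and the libraries without 4TU of strain KWY165. The courses were labelled with 4TU, and the other set had no label and 1 library per group. At 30 min without glucose it had 14.2 and 14.8 CPM in the decay courses and 124.5 CPM in total RNA without 4TU, against 2.38 and 1.87 CPM with glucose in the courses and 1.35 CPM with glucose in total RNA without 4TU. Its neighbour on the same strand, PHD1, stood at 400.9 CPM + 1 at 30 min in the courses without glucose. In total RNA with 4TU of strain KWY11376 MMO1 had 132 and 108 CPM without glucose, so labelled libraries differed from the courses too. YJL107C had 11.5 and 14.3 CPM at 30 min in the courses without glucose and 42.5 CPM in total RNA without 4TU. In total RNA with 4TU of KWY11376 YJL107C had 12.2 and 14.03 CPM, near its level in the courses. The cause was not tested.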
